A study of Neurospora discreta with 48 samples.

Results

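Close divergent gene pairs are neighbouring genes that point away from each other across a short intergenic stretch, the left on the minus strand and the right on the plus strand. In the genome of the filamentous fungus Neurospora discreta, 496 pairs were found whose gene models lay 1 to 600 bp apart, counted as the start of the right model minus the end of the left. They made up 19.9% of the 2494 divergent neighbours in the authors' deposited table and held 992 of its 9280 genes. Each gene belonged to 1 such pair. The pairs were picked by a rule on position and strand alone, with no expression value in it. The rule itself was set with earlier results of these data known.

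The transcription start sites of such genes face each other, so the DNA between them serves as upstream region for both. In the compact genomes of fungi, genes that share an upstream region in this way include enzymes of 1 pathway, such as GAL1 and GAL10 of galactose use in Saccharomyces cerevisiae, and the genes of histones H3 and H4 in Neurospora crassa. Other divergent neighbours of yeast use separate elements within the shared stretch and are expressed independently. No gene ID comes with a name or a function in the authors' deposited table, and no promoter is mapped there, so genes are given here by scaffold and position and "close" describes distance only.

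The study sequenced RNA from mycelial pads, labelled mycelia and conidia, of 4 strains at 4 times with 3 libraries for each, 48 in all. The groups compared here are the parental strains FGSC8578, the North American parent with the label low RI, and FGSC8831, the African parent with the label high RI, a term the labels do not expand. Pads of both had been entrained on low glucose medium at a constant 25 °C, with light and dark phases of 12 h, and 3 libraries each were made at 15 min of light. Each parent is 1 strain. Whether its 3 libraries stand for 3 cultures is not labelled, and p-values therefore measure the spread between these libraries, which may be technical. The progeny N309-89 and N309-50 and the other times are not analysed here.

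Each gene has 1 mean per strain in the authors' deposited table, in normalized counts (read counts divided by a size factor per library), with no value per library and hence no SD. The arms are called A and B. The column headers do not say which strain is which; if the table's name lists the strains in column order, A is the North American parent and B the African. The sums of the means were 9331506 normalized counts for A and 10507386 for B, and the depth of single libraries is unknown. Setting these totals equal would lower every log2 ratio of B over A by 0.17. A gene is called different where its DESeq adjusted p in the authors' deposited table is under 0.05. Genes that code for conidial, sexual or hyphal markers could not be looked up, because IDs carry no names.

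The 496 gaps had a median of 401.5 bp and quartiles of 249 and 505 bp. The pairs were spread over 32 of 64 scaffolds, with 80 on scaffold 1, 62 on scaffold 2 and 50 on scaffold 4. Scaffold 18, with 24 divergent neighbours, held 1 close pair. The member genes had a median level of 225 normalized counts, beside 226 for all genes, and took 9.0% of all normalized counts. Their models were shorter, with a median of 1478 bp from start to end against 1716 bp for all genes, and 17.6% of them were under 600 bp against 12.2%. Models of the SNAP predictor made up 6.15% of member genes and 7.79% of all.

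At the shortest distances the pairs had a different makeup. Of the 90 pairs up to 200 bp apart, 64 (71.1%) held a gene model under 600 bp and 68 (75.6%) held a gene with under 50 normalized counts. Among the 406 pairs over 200 bp and up to 600 bp apart these shares were 23.2% and 33.3%. The weaker gene of a pair had a median of 14.7 normalized counts in the first set and 117 in the second, while the stronger gene had 394 and 502. The closest pair, on scaffold 1, had a gap of 1 bp, with no base between its models. Its left gene (3264276 to 3265933) had 1322 in A and 1244 in B and its right gene (3265934 to 3266527) at 187 and 144 in the authors' deposited table, and neither was called. On scaffold 10 the models at 210953 to 211307 and 211310 to 212650, with a gap of 3 bp, had 8.93 and 25.5 in A and 24.3 and 47.3 in B, by the authors' deposited table. Both of these genes were higher in B without a call.

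**Figure D1:**
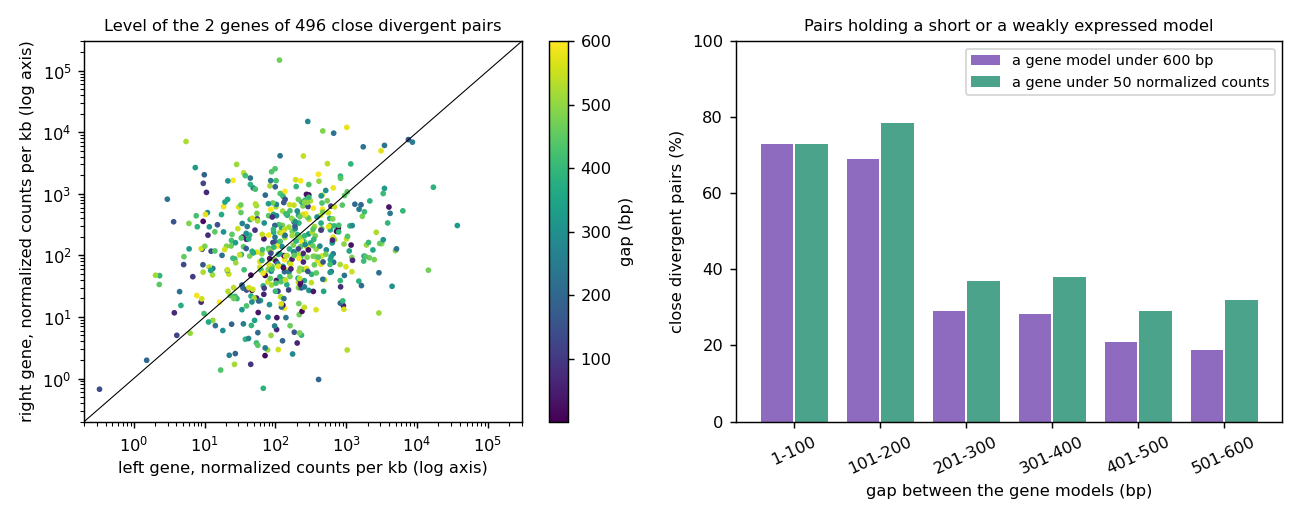
Left, normalized counts per kb of gene model of the left and right gene of each of the 496 close divergent pairs on log axes, coloured by gap in bp, with the line of equal levels. Right, percent of pairs in each 100 bp class of gap that hold a model under 600 bp or a gene under 50 normalized counts; both shares are near 70 to 80% up to 200 bp and below 40% beyond.

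Partners differed widely in level. Per kb of gene model, the stronger gene of a close pair had a median of 3.84 times the level of the weaker. In 133 pairs (26.8%) the levels per kb lay within 2-fold of each other, and in 94 (19.0%) they were more than 16-fold apart. For divergent pairs over 1500 bp apart the median ratio per kb was 5.02, and for same-strand pairs 4.57, or 4.03 where these too were 1 to 600 bp apart. Lower medians were found in divergent pairs of 601 to 1000 bp (3.09) and same-strand pairs of 1 to 300 bp (3.19). Neighbours of 1 to 600 bp that point at each other had 3.77. Across the 496 close pairs, log2 levels per kb had a Pearson r of 0.24 and a Spearman rho of 0.22, a description across pairs that share the same 6 libraries. The same values were 0.13 and 0.11 in the 1049 far divergent pairs and 0.19 and 0.19 in the 974 same-strand pairs of 1 to 600 bp. In divergent pairs of 601 to 1000 bp they were 0.24 and 0.22, as in the close pairs. Without the division by length, r was 0.12 in close divergent pairs and 0.09 in far divergent pairs. It was then higher in same-strand pairs, at 0.15, and in those of 1 to 600 bp, at 0.16. The left gene was the higher per kb in 266 of the 496 pairs.

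The scatter of levels per kb shows these extremes. On scaffold 2, 2 genes with a gap of 155 bp (2990075 to 2991549 and 2991704 to 2993235) were nearly equal, at 7559 and 7617 normalized counts per kb. In the authors' deposited table the left gene had 9988 in A and 12311 in B, and the right gene 10670 in A and 12668 in B. This pair had the highest lower mean of all close pairs. A pair on scaffold 23 with a gap of 247 bp (66036 to 71740 and 71987 to 73472) followed, at 8614 and 6921 per kb, and a pair on scaffold 11 with a gap of 571 bp (513378 to 515029 and 515600 to 516609) at 3104 and 5008 per kb. None of these 6 abundant genes was called, and their log2 ratios of B over A ran from 0.12 to 0.47.

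At the other extreme stood a pair on scaffold 19 with a gap of 471 bp. Its right gene (321047 to 321765) had 113418 in A and 100689 in B normalized counts, by the authors' deposited table, the highest level among member genes. Its left partner (319115 to 320576) had 161 in A and 172 in B, by the authors' deposited table. Per kb the levels were 1304-fold apart, and neither gene was called. On scaffold 15, a gene with 4924 in A and 1774 in B (607973 to 609664) faced a 324 bp model (607230 to 607553) with 18.3 in A and 6.10 in B, by the authors' deposited table. The stronger of these was called higher in A (DESeq adjusted p = 0.0083) and the weaker had a log2 ratio of -1.58 beside -1.47, with an adjusted p of 0.195. A scaffold 2 pair with a gap of 228 bp was alike in the other direction. Its gene at 1978067 to 1980597 had 1351 in A and 3422 in B (DESeq adjusted p = 0.0147) and its 216 bp partner (1980825 to 1981040) 4.03 in A and 16.4 in B (adjusted p = 0.13) in the authors' deposited table.

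The order of the 2 levels rarely differed between the arms. Among 489 close pairs with all 4 means above 0, the gene with the higher level per kb in A was the lower in B in 40 pairs (8.18%, exact binomial 95% interval 5.91 to 10.97, which covers counting error only). This share was 13.2% (11.2 to 15.5) in far divergent pairs and 12.6% (10.5 to 14.8) in same-strand pairs of 1 to 600 bp. In a single close pair the levels per kb were more than 2-fold apart in both arms with opposite order. There, on scaffold 5, the gene at 2556611 to 2560032 had 17.5 in A and 292 in B (DESeq adjusted p listed at 0) and its 214 bp partner (2560408 to 2560621) 4.40 and 4.94 (adjusted p = 1) in the authors' deposited table.

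Genes of close divergent pairs were called different less often than the table as a whole. Of the 992, 84 (8.47%, exact binomial 95% interval 6.81 to 10.38) were called, where 15.0% of all 9280 genes were. Of these, 30 were higher in B (3.02%, against 6.93% of all genes) and 54 were higher in A (5.44%, against 8.03%). By edgeR in the authors' deposited table, 122 members (12.3%) were called, against 21.4% of all genes, and at a DESeq adjusted p under 0.01, 43 (4.33%) against 9.60%. In far divergent pairs the DESeq share was 17.6% (16.0 to 19.3), in same-strand pairs 16.1% (15.3 to 16.9) and in same-strand pairs of 1 to 600 bp 13.7% (12.2 to 15.3). A gene that lay in more than 1 same-strand pair was counted in each. Over distinct genes the shares were 15.9% in same-strand pairs and 14.1% in those of 1 to 600 bp. Of the genes in same-strand pairs, 469 also belonged to a close divergent pair. These shares are descriptions over genes, which are not independent replicates, and the differences between them were not tested.

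The size of the differences was also smaller. The median absolute log2 ratio of B over A was 0.41 for the 984 members with a mean above 0 in both arms and 0.51 for all genes. A ratio over 2-fold was found for 17.6% of these members and 25.7% of all such genes. Calls with both means above 0 and a difference of 16-fold or more were found for 1 of the 992 members (0.10%). It was the scaffold 5 gene at 2556611 to 2560032. Of all 9280 genes, 151 (1.63%) had such a call. Log2 ratios of members ran from -3.48 to 4.06, those of all genes from -10.32 to 10.03. The lower end of the members rests on a mean of 0.750 normalized counts in B. These ranges cover 984 and 9127 genes, and a range widens with the number of genes. Members at 0 in an arm have no such ratio and are left out. For 1 of them, on scaffold 2 (1444034 to 1444300), edgeR gave a log2 fold change of -8.52.

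The share of members called was below that of all genes at each level of expression, though in the lowest tier its interval covered their share. For members with under 50 normalized counts it was 10.6% (exact binomial 95% interval 7.0 to 15.3), against 14.0% of all genes at that level. From 50 to under 200 it was 9.79% (6.31 to 14.3) against 17.1%, and from 200 to under 700 it was 7.96% (5.11 to 11.70) against 13.2%. Of 233 members with 700 or more, 13 (5.58%, 3.0 to 9.35) were called, against 16.0% of all such genes and 21.6% of those in far divergent pairs. In that top tier 8 of the members called had the higher mean in B and 5 in A, where the whole table had 251 and 107. Model length moved with the distance as well, and its part in these shares was not tested; without models under 600 bp the share called was 7.84%.

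**Figure D2:**
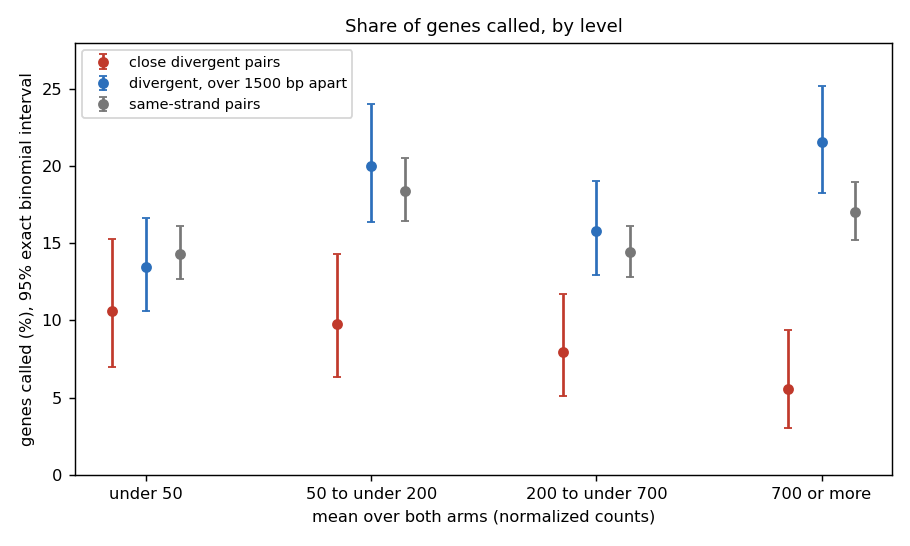
Percent of genes called (DESeq adjusted p under 0.05) in 4 tiers of mean normalized counts, for genes of close divergent pairs, of divergent pairs over 1500 bp apart and of same-strand pairs; bars are exact binomial 95% intervals. The close divergent genes lie lowest in each tier and reach 5.58% in the highest.

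The limit of 600 bp marked no step. Divergent pairs of 601 to 1000 bp had 7.52% of their genes called, those of 1001 to 1500 bp 14.1%, those of 1501 to 3000 bp 16.2% and those over 3000 bp 19.9%. Within the close pairs the share was 7.57% up to 300 bp and 8.87% from 301 to 600 bp. Same-strand neighbours had 16.3% at 1 to 300 bp, 12.1% at 301 to 600 bp and 18.5% over 3000 bp. Convergent neighbours ran from 13.5% at 1 to 300 bp to 18.5% at 1501 to 3000 bp. The pairs next to the limit were alike in having no call. Just inside it, a scaffold 6 pair with a gap of 600 bp (667189 to 669455 and 670055 to 673074) had log2 ratios of -0.32 and 0.48, and a scaffold 2 pair at 599 bp (2470856 to 2474590 and 2475189 to 2476473) of 0.51 and -0.57. Just outside, a scaffold 12 pair at 602 bp (434101 to 436928 and 437530 to 438231) had -0.22 and 0.01, and a scaffold 2 pair at 603 bp (192443 to 193221 and 193824 to 195115) had -0.30 and -0.14.

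**Figure D3:**
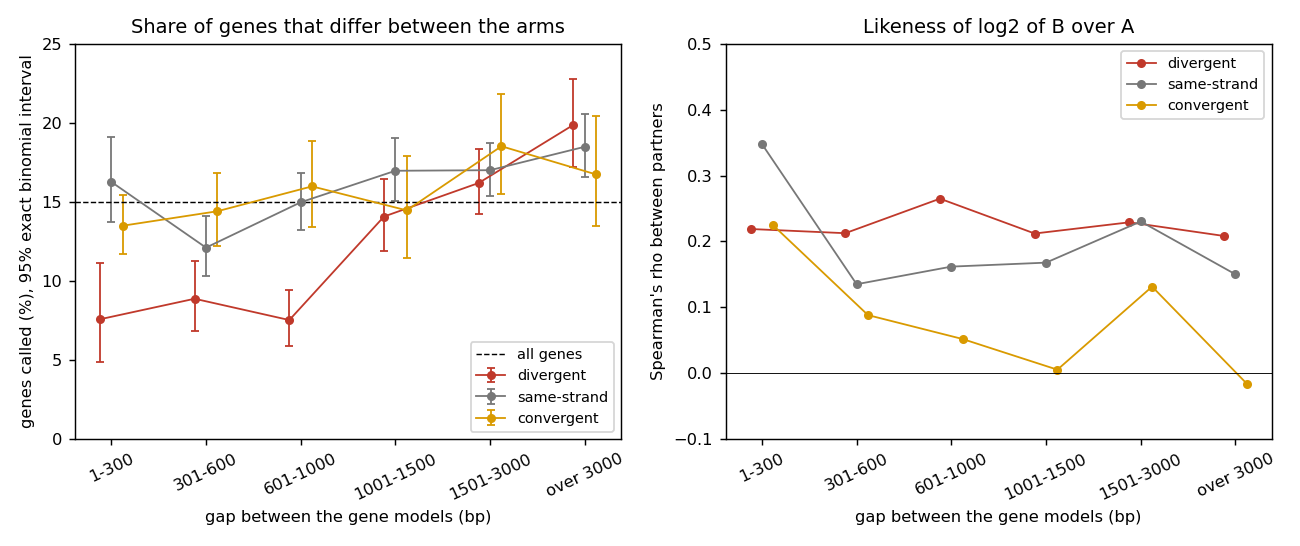
Left, percent of genes called against the gap between neighbouring gene models in bp, for divergent, same-strand and convergent neighbours, with exact binomial 95% intervals and a dashed line at the 15.0% of all genes. Right, Spearman's rho between partners for the log2 ratio of B over A. Divergent neighbours lie between 7.52% and 8.87% up to 1000 bp, while their rho stays between 0.21 and 0.26 at each gap.

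The log2 ratios of partners resembled each other weakly. In 275 of 489 close pairs (56.2%, exact binomial 95% interval 51.7 to 60.7) both genes had a ratio of the same sign, beside 57.3% of far divergent pairs, 56.7% of same-strand pairs and 57.9% of same-strand pairs of 1 to 600 bp. Pearson's r between partners was 0.30 and Spearman's rho 0.22. In far divergent pairs they were 0.21 and 0.22, in same-strand pairs 0.20 and 0.19, and in same-strand pairs of 1 to 600 bp 0.30 and 0.23. Rank likeness in close divergent pairs thus had the value of far divergent pairs to 2 decimals. It was 0.22 at gaps of 1 to 300 bp and 0.21 from 301 to 600 bp. Where both genes averaged 50 or more normalized counts, 293 close pairs were left, with r of 0.23 and rho of 0.17. Far divergent pairs at that level had an r of 0.19 and a rho of 0.23. The share with the same sign was then 54.6% in close pairs and 59.6% in far divergent pairs.

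Partners lay closer together in log2 ratio than those of the comparison pairs, but not closer than divergent neighbours of 601 to 1000 bp. The median absolute difference between the log2 ratios of partners was 0.55 in close pairs, against 0.73 in far divergent pairs, 0.78 in same-strand pairs and 0.65 in same-strand pairs of 1 to 600 bp. In 226 close pairs (46.2%) the partners were less than 0.5 apart, and in 125 (25.6%) more than 1 apart, where far divergent pairs had 36.3% and 40.8%. Divergent neighbours of 601 to 1000 bp had a median difference of 0.51, with 49.1% less than 0.5 apart and 21.3% more than 1 apart. The genes of close pairs also had smaller ratios in themselves, with a median absolute log2 ratio over pairs of 0.40 against 0.57 in far divergent pairs, beside the smaller distance between partners.

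**Figure D4:**
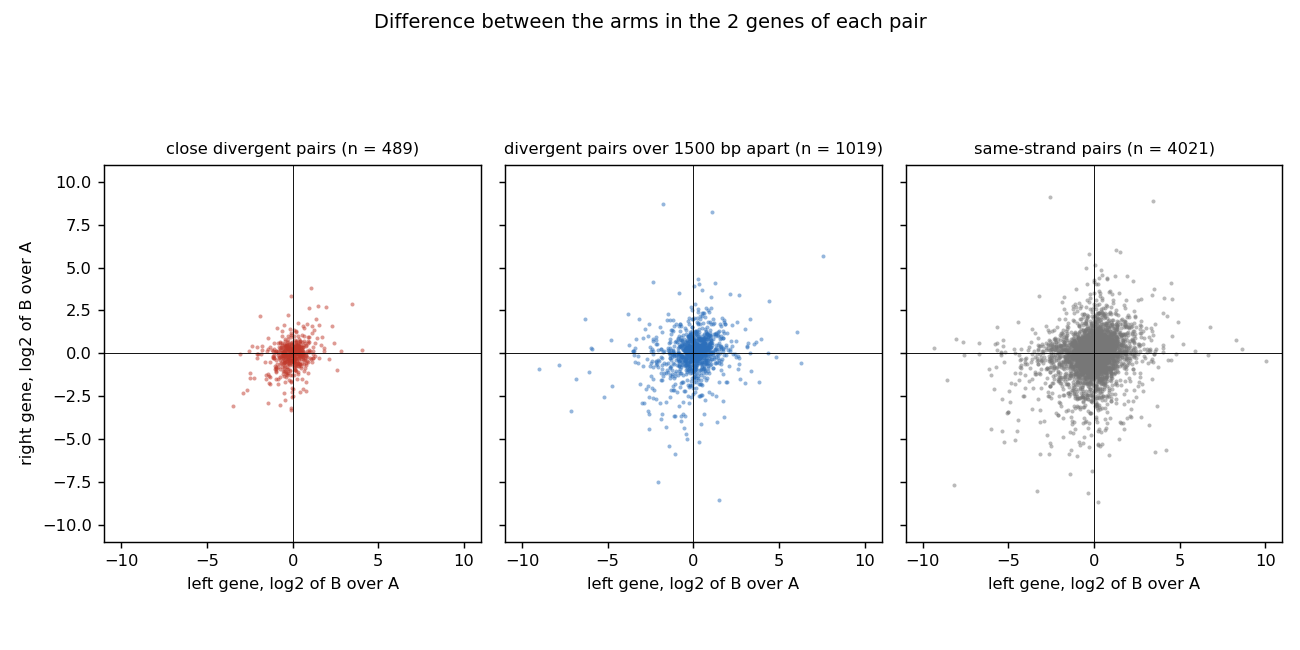
Log2 ratio of B over A of the right gene against that of the left gene, in 489 close divergent pairs, 1019 divergent pairs over 1500 bp apart and 4021 same-strand pairs with means above 0 in both arms. Each point is a pair. The close pairs lie within -3.48 and 4.06 on both axes, and the other classes, which hold more pairs, reach beyond these values.

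In 71 of the 496 pairs (14.3%) at least 1 gene was called, in 58 of them exactly 1 and in 13 both (2.62% of the pairs). Of the 1049 far divergent pairs, 268 had exactly 1 gene called and 51 both (4.86%). In close pairs 26 of the 84 called genes (31.0%) had a called partner, a share that was 27.6% in far divergent pairs and 26.2% in same-strand pairs of 1 to 600 bp. Of all genes in these classes 8.47%, 17.6% and 13.7% were called. The share with a called partner thus lay furthest above the class share in close pairs, on few pairs, and this was not tested. The 2.62% and 4.86% of pairs with both genes called rest on the same unlike class shares. Both genes were called in the same direction in 12 close pairs, 4 with the higher means in B and 8 in A, and in opposite directions in 1. Far divergent pairs had 39 and 12, same-strand pairs of 1 to 600 bp 31 and 4. The edgeR columns also called both genes in 11 of the 13. Of the 12 pairs, 10 had no outer neighbour called in the same direction and 2 had 1. Of all genes, 6.93% had a call with the larger mean in B and 8.03% one with the larger mean in A. At such shares most outer neighbours would lack a matching call anyway, so these counts do not set the pairs apart. In the 11 of the 12 pairs with means above 0, the log2 ratios of partners had a median difference of 0.64.

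Among pairs with at least 50 normalized counts in both genes, 2 were higher in B in both. On scaffold 19, with a gap of 592 bp, the left gene (60878 to 62501) had 192 in A and 925 in B and the right gene (63093 to 66199) 896 in A and 2735 in B, by the authors' deposited table. Their log2 ratios were 2.26 (DESeq adjusted p listed at 0) and 1.61 (0.0009). On scaffold 3, 2 genes with a gap of 400 bp moved nearly in parallel. The left (2017843 to 2020012) had 141 in A and 335 in B and the right (2020412 to 2022355) 113 in A and 291 in B, by the authors' deposited table. Their log2 ratios were 1.24 and 1.37, with DESeq adjusted p of 0.03 and 0.0177, and per kb they differed by 1.06-fold.

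In the other direction, 3 such pairs were higher in A in both genes. On scaffold 12, with a gap of 219 bp, the gene at 334309 to 335323 had 230 in A and 48.3 in B and its partner at 335542 to 336639 had 339 and 127 in the authors' deposited table. Their log2 ratios were -2.25 and -1.42, with DESeq adjusted p of 0.0002 and 0.0079. On scaffold 1, with a gap of 214 bp, the genes at 1348598 to 1352581 and 1352795 to 1355798 had 202 and 136 in A but 76.8 and 41.0 in B, by the authors' deposited table. Both had low levels per kb, 35.0 and 29.5. On scaffold 4, with a gap of 460 bp, the log2 ratios of the genes at 370206 to 371251 and 371711 to 373793 were -1.32 and -1.36, the closest agreement among the 12 pairs, at levels per kb 5.05-fold apart. Their means were 530 in A and 212 in B on the left and 211 in A and 81.9 in B on the right in the authors' deposited table.

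**Figure D5:**
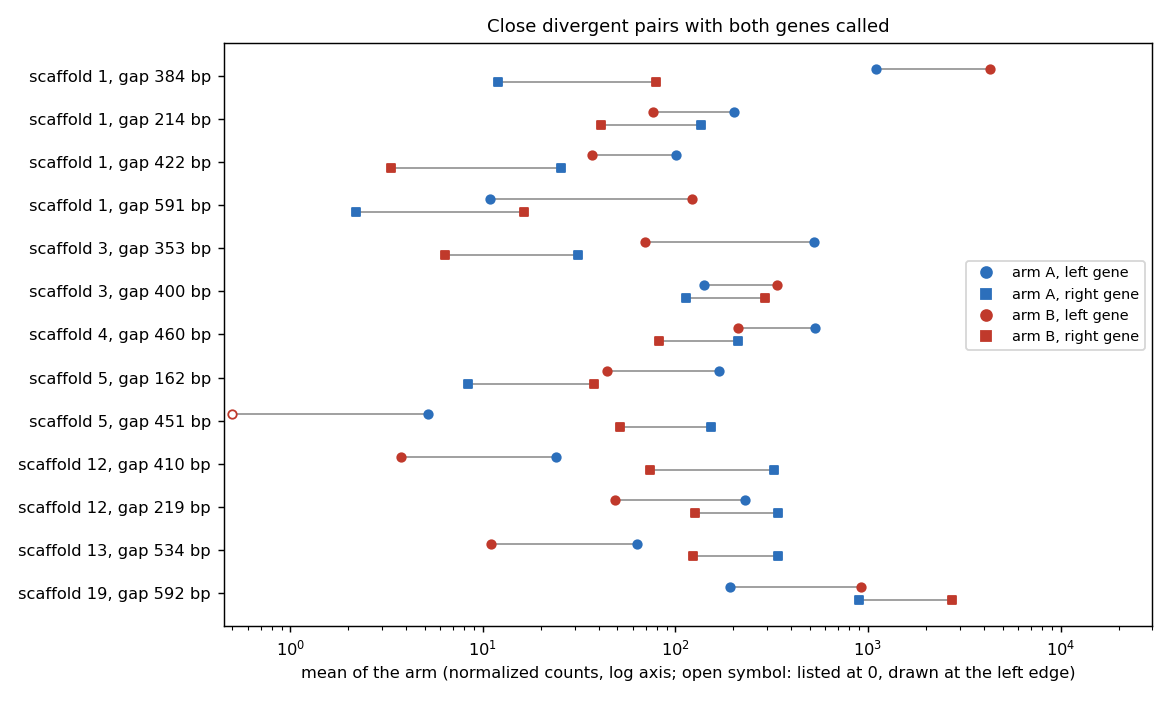
Mean of arm A (blue) and arm B (red) in normalized counts on a log axis for the left gene (circle) and the right gene (square) of the 13 close divergent pairs with both genes called; each row is a pair, named by scaffold and gap in bp, and grey lines join the arms of 1 gene. In 12 rows both lines run the same way, and in the row of scaffold 5 with a gap of 162 bp they run in opposite ways; no error bars are drawn because the values per library are not in the table used.

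The other 7 same-direction pairs had a gene under 50 normalized counts, and they are given after their values were seen. On scaffold 1, a gene of 1106 in A and 4306 in B (1148108 to 1149900) faced, at 384 bp, one of 12.0 in A and 79.7 in B (1150284 to 1151484) in the authors' deposited table. Also on scaffold 1, at 591 bp, the genes at 4645531 to 4646028 and 4646619 to 4647287 had 10.9 and 2.20 in A but 122 and 16.4 in B, by the authors' deposited table. The remaining 5 were higher in A and lay on scaffolds 1, 3, 5, 12 and 13. Per kb of gene model, their widest contrast in level was on scaffold 3 with a gap of 353 bp. Its left gene (1282809 to 1283426) had 524 in A and 69.5 in B and its right gene (1283779 to 1284501) 31.3 and 6.38 in the authors' deposited table. On scaffold 5 (2715860 to 2716045) a 186 bp model had 5.19 in A and 0 in B, facing a gene of 153 in A and 51.8 in B (2716496 to 2716918) in the authors' deposited table.

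The pair with opposite calls lay on scaffold 5 with a gap of 162 bp. Its left gene (1594225 to 1594801) had 169 in A and 44.1 in B and its right gene (1594963 to 1599030) 8.33 in A and 37.6 in B, by the authors' deposited table. The log2 ratios were -1.94 (DESeq adjusted p = 0.0019) and 2.17 (0.0089), and edgeR called both, with false discovery rates of 0.0175 and 0.0013. The left model was under 600 bp long. The right gene had under 50 normalized counts, so the pair fell outside the rule for named pairs and was chosen after its values were seen.

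In the 58 pairs with exactly 1 called gene, the uncalled partner leaned the same way in 36 of 55 that had a ratio. Its median log2 ratio in the direction of the call was 0.21, the same to 2 decimals as in far divergent pairs, where 59.9% leaned the same way. The pairs named next lay furthest apart in log2 ratio among those with at least 50 normalized counts in both genes. Pairs with fewer counts were left out, and some of them lay further apart. A choice by distance favours partners with little difference or an opposite one, so these partners do not stand for the rest. On scaffold 8, with a gap of 583 bp, a gene with 165 in A and 29.1 in B (283637 to 284056) faced one with 334 and 343 (280408 to 283054) in the authors' deposited table. On scaffold 10, with a gap of 265 bp, the right gene (561658 to 563921) had 1278 in A but 217 in B and the left (558578 to 561393) had 98.3 and 93.7 in the authors' deposited table. The DESeq adjusted p was 0.0001 and 0.9735 in the first of these pairs and 0 and 0.9759 in the second, in the order named. On scaffold 9, with a gap of 485 bp, partners leaned apart, with log2 ratios of 1.64 (928292 to 929670, DESeq adjusted p = 0.0077) and -0.48 (925755 to 927807, 0.5585).

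Of the 992 members, A lists 3 at 0 and B lists 5, where of all 9280 genes A lists 46 and B lists 107. Of the members with a 0 in an arm, 5 were called. The share called of all genes at 0 was not computed, so this count does not set the members apart. On scaffold 11 both genes of a pair with a gap of 520 bp were listed at 0 in A, with 44.7 in B for the left (1136202 to 1137046) and 3.32 for the right (1137566 to 1138542) in the authors' deposited table. Only the left was called by DESeq (adjusted p listed at 0), while edgeR called both. The other gene at 0 in A lay on scaffold 6 (278611 to 280366), with 13.1 in B, and was called. In B, genes at 0 lay on scaffold 1 (4507130 to 4507285), scaffold 2 (1032212 to 1032583 and 1444034 to 1444300) and scaffold 5 (300183 to 301530 and 2715860 to 2716045), at 2.79 to 44.7 in A, by the authors' deposited table. The model at 1444034 to 1444300, called lower in B, faced at 522 bp a gene of 1694 in A and 1715 in B (DESeq adjusted p = 0.9922 in the authors' deposited table). Whether a gene listed at 0 is unexpressed, missing from that strain's genome or too different in sequence to be counted was not tested.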

How the data were processed

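RNA of 2 strains with 3 libraries each was compared by the authors. The submitters' processing notes list TopHat2 2.1.1, DESeq, edgeR, HTSeq, cutadapt 1.3, SAMtools and FastQC 0.11.4 with no role or order. For the genome build, annotation and strand setting the sources used here give nothing, and without strand, reads of close or overlapping models may be counted for either gene. Per the file headers, the DESeq columns of the authors' deposited table hold mean signal (counts divided by size factors), a fold ratio and p-values, and the edgeR columns p-values, a likelihood ratio score (not used), the log2 fold change and a log2 CPM average. The p-values, rounded to 4 decimals, are adjusted over all 9280 genes. With Python 3.11.15, pandas 2.3.3 and scipy 1.17.1, rows were sorted by scaffold and start and neighbours paired; genes not in the table cannot separate neighbours. Log2 ratios were computed from the arm means without a pseudocount, leaving out genes at 0 (7 close pairs). Comparison pairs were divergent neighbours over 1500 bp apart and same-strand neighbours at least 1 bp apart. The pair finder was tested on simulated data. Intervals at 95% are exact binomial and cover counting error only. Members, comparisons and lists were chosen with earlier results of these data known. Named pairs were, with a mean of at least 50 in both genes, the 4 per direction with the largest smaller ratio among pairs called alike, the 4 called oppositely and the 3 with 1 gene called that were furthest apart; and, without that minimum, the 3 with the highest lower mean, the 3 with the largest ratio of means (lower mean at least 10), and pairs at the 600 bp limit and at the smallest gap. Names of 26 genes (conidial, sexual and hyphal markers, histones, quinic acid cluster) matched 0 entries. Alternatives are in the closing section.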

Additional observations from a re-analysis of the deposited data

How the results depend on the processing

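No paired analysis was possible because single libraries and their numbers are not in the table used, which has arm means. Other normalizations, filters on low counts and leaving out replicates, which need libraries, were not run. The 84 called genes, 12 pairs called alike and 1 called oppositely became 43, 3 and 1 at an adjusted p under 0.01. The edgeR columns gave 122 genes and 19 pairs called alike. With gaps of 1 to 300 bp the counts were 23 genes and 2 pairs called alike, and with 1 to 1000 bp 153 genes, 21 pairs called alike and 2 called oppositely, because fewer or more pairs entered; the shares called were 7.57% and 8.01%. Gaps over 200 and up to 600 bp, chosen after seeing the data, left 0 pairs called oppositely. Leaving out pairs with a model under 600 bp, also chosen after seeing the data, left 53 genes, 0 pairs called oppositely, an r of log2 ratios of 0.38, an r of levels of 0.24 and a median difference of 0.49. The r of log2 ratios was 0.38 with edgeR's fold changes, the r of levels 0.24 per kb, and the median difference 0.43 with at least 50 normalized counts in both genes; the cause was not tested. Of 74 alternative values for the close pairs, the other 57 stayed within 1.5 times a count or within the 95% interval of a value. With equal arm totals 60.5% of pairs had the same sign, beside 57.7% of far divergent and 57.1% of same-strand pairs. Close pairs, the lowest of these classes in the main values, were then the highest. Depth per library is unknown, and low genes near 0 carry few counts.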

Other observations

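The edgeR average of log2 CPM in the authors' deposited table was used above only as an alternative measure of level. The column headers do not name the libraries in this average, and whether they go beyond the 6 compared was not tested. The distance of this average from log2 of the DESeq mean was centred on the median of all 6148 genes averaging 100 or more normalized counts. For the 666 member genes among them it ran from -0.67 to 0.78 with an SD of 0.20, against an SD of 0.28 for all. The highest value of all was 5.83. More than 2-fold above that centre lay 0 of the 666 members and 28 of the 6148 genes, counts too few to set the members apart. The highest member was a gene on scaffold 3 (1348467 to 1355776), at 336 (A) and 232 (B) normalized counts in the authors' deposited table. In 231 close divergent pairs with both genes at that level, this distance had a Pearson r of 0.15 between partners, beside 0.21 in far divergent pairs and 0.29 in same-strand pairs of 1 to 600 bp.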
